A study of Homo sapiens with 21 samples.

Results

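The interferon response genes examined here are 50 genes that cells switch on after interferon, taken by symbol from the known targets of interferon. Membership goes by symbol and uses no measured value, although the list was chosen with earlier results of these data known. Of the 50 genes, 48 had a probe set that the annotation table of the array assigns to that gene alone, among 18374 genes with such a probe set. For each gene the probe set with the highest mean over the 21 arrays was used. STAT2 and GBP1 are not analysed here. A probe set that lists GBP1 also lists 2 other genes.

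Expression was measured with Affymetrix whole-transcript arrays. The cells were U-87MG, a line established from a human glioblastoma. The vector clones V8, V17 and V22 stably carried the empty vector, and the parkin clones PK7, PK19 and PK25 stably expressed parkin, which ubiquitinates proteins of damaged mitochondria. Each clone had 3 arrays in an array series, numbered as sets, and the prefix of the array file names was read here as a first series (V8, V17 and V22, sets 1 to 3) and a second series (PK7, PK19 and PK25, sets 1 to 3, and V22, sets 4 to 6). All clones were plated at one density, and the labels name no interferon treatment. Each group is a single clone, and the promoter that drives parkin is not given in the sources used here. PK7, PK19 and PK25 were set against the same V22 arrays, and so were V8 and V17.

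Interferons are secreted proteins that warn cells of virus. They bind receptors at the cell surface, Janus kinases on those receptors phosphorylate STAT proteins, and a complex of STAT proteins with IRF9 enters the nucleus and binds the interferon-stimulated response element (ISRE) in front of its target genes. The targets degrade viral RNA, block viral entry, attach the ubiquitin-like protein ISG15 to other proteins and improve antigen presentation, and many are also held at a low level in cells that have met no virus.

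All values are log2 RMA intensities, and a difference is a difference of such values, so that 1 means 2-fold. Each clone was compared with V22 of the same array series by limma over all 26947 probe sets, with Benjamini-Hochberg adjustment, and a gene is said to have risen or fallen when its adjusted p was under 0.05. Nothing in the labels says that arrays of a clone came from separate cultures, so the p-values reflect array-to-array spread, which may be technical. Array medians lay between 6.21 and 6.37, with PK7 set 2 and PK25 set 3 highest. Of the markers of a mesenchymal glioblastoma line, 5 of 6 were measured, with gene means of 10.73 to 12.80, the lowest and highest of the 5. Their levels varied between clones. CD44 had a mean of 12.53 in PK19 and 11.63 in V22 of the second series, and 12.05 in V8 and 11.39 in V22 of the first. TNC was lower in PK7, at 10.62, than in V22 of its series, at 11.16. The glial markers GFAP and OLIG2 were at 6.40 and 5.70 in parkin clones and 6.28 and 5.57 in vector clones. Leukocyte markers gave array means of 5.51 to 5.96 over the 6 of 8 genes measured, with CD68, a lysosomal protein gene, highest at 11.32 and PTPRC, the gene for the pan-leukocyte surface protein CD45, at 3.06 in parkin and 3.15 in vector clones. No leukocyte marker passed in any clone against V22. Of 4 endothelial markers, KDR, the gene for a VEGF receptor, fell in PK7 (-2.26), PK19 (-2.65), PK25 (-1.77) and V8 (-1.05), while PECAM1 rose in PK7 (0.43). Of 4 epithelial markers, KRT8 rose in PK7 (0.55). The neural stem markers SOX2 and NES fell in PK7, PK19 and V8. Their part in the results for the members was not tested. The transcript of the introduced parkin gene was not analysed here.

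Most members with a promoter entry carried the core of the ISRE. The genes were chosen as known targets of interferon, so this share is not independent of that choice. RefSeq promoters of GRCh38.p14 (250 bases before to 50 after a start site) were found for 41 of the 50 genes, with 55 promoters in all. The core of the ISRE, searched on both strands as GAAA, any 2 bases and GAAA (on the other strand TTTC, any 2 bases and TTTC), overlapping matches included, was present in a promoter of 30 of these 41 genes (73.2%). Over all 27305 genes with a promoter it was present in 4.38%, and over all 35116 promoters in 3.57%. The gamma-activated site, searched as TTCNNNGAA, was present in 34.1% of the 41 genes and 9.38% of all genes. MX2, TRIM22, GBP2, USP18, IFIT2, OAS2, OASL, IFITM2 and IRF7 had no entry. The 7 promoters below are shown because they carry the ISRE core while their genes moved differently in these clones. IFIT1 rose in PK19, IFI6 rose in PK7 and fell in V8, OAS3 rose in PK7 and fell in PK19, IFITM3 and IFI44L fell in PK19, HERC5 fell in PK7 and V8, and ISG15 passed in no clone. Capitals mark the matches of the core, and adjoining or overlapping matches run together.
IFIT1 (chr10:89392373-89392672, plus strand): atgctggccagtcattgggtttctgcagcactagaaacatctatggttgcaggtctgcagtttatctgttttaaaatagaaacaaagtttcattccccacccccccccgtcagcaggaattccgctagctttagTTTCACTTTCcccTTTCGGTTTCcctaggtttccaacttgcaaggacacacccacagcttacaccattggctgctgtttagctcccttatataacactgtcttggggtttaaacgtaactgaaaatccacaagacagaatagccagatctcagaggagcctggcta
IFI6 (chr1:27672143-27672442, minus strand): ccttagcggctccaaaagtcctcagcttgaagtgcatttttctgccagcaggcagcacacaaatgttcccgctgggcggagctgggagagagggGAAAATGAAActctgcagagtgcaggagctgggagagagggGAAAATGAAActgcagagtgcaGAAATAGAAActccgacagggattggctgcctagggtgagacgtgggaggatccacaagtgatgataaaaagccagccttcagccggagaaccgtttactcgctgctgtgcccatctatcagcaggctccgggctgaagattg
OAS3 (chr12:112938224-112938523, plus strand): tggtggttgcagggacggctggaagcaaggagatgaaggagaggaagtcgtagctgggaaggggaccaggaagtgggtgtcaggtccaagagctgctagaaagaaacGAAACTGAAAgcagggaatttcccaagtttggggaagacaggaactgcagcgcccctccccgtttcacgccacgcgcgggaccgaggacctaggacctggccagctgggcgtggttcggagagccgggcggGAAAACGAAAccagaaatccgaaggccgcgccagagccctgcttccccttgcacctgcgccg
IFITM3 (chr11:320811-321110, minus strand): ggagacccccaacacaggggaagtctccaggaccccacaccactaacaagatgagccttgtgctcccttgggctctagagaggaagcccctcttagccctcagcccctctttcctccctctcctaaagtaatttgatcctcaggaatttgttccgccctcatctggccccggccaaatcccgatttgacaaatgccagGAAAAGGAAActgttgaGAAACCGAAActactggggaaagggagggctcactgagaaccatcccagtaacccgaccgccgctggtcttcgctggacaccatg
IFI44L (chr1:78620198-78620497, plus strand): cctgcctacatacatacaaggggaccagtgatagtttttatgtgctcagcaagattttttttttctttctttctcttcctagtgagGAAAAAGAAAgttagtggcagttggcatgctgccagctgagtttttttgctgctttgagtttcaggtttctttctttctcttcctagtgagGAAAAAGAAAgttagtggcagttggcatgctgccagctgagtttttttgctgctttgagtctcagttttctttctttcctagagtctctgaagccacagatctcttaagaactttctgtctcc
HERC5 (chr4:88456869-88457168, plus strand): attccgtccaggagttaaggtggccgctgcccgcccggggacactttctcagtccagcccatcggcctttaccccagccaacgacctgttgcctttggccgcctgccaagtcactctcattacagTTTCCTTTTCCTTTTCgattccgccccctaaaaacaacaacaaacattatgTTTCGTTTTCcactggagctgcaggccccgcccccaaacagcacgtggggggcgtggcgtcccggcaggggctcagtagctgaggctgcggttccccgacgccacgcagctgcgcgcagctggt
ISG15 (chr1:1013247-1013546, plus strand): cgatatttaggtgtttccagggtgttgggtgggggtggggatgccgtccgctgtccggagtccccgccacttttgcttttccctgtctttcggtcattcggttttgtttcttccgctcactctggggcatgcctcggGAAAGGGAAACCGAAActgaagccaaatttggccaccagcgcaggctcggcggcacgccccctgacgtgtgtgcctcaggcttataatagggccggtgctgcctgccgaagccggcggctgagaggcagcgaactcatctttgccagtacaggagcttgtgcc

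These promoters hold 2 or 3 matches each. In IFIT1 the matches begin 116 and 103 bases before the start site, in IFI6 156, 115 and 93 bases before it, and in ISG15 113 and 107 bases before it. A match is a sequence description and does not show that a factor binds there. Among the 39 measured members with a promoter, those with the core passed in PK7 in 6 of 29 cases (4 higher, 2 lower). Those without it passed in 1 of 10, where 18.4% of all genes passed by their brightest probe set. In PK19 the counts were 8 of 29 (4 higher, 4 lower) with the core and 3 of 10, all higher, without it, where 16.9% of all genes passed. The part of the core in these calls was not tested.

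The members did not move as one block in any clone. Against V22 of the same series, 11 of 48 passed in PK7 (15.2% of all probe sets, and 18.4% when each gene is counted by its brightest probe set), of which 8 rose (7.11% of all probe sets) and 3 fell (8.11%). In PK19, 15 of 48 passed (14.0% of all probe sets, 16.9% by gene), 10 higher (6.65%) and 5 lower (7.40%). In PK25 only GBP2 passed, and it fell (1.37% of all probe sets passed, 1.66% by gene, and 0.939% fell). The vector clone V8 also departed from V22, with 5 of 48 lower (8.00% of all probe sets passed, 9.49% by gene, and 4.22% fell) and none higher (3.78%). In V17 no member passed by limma (0% of all probe sets), and none had an unadjusted p under 0.05, against 730 of all probe sets.

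The median difference over the 48 members was 0.12 in PK7, 0.087 in PK19, -0.012 in PK25, -0.054 in V8 and 0.038 in V17. Differences ran from -0.82 to 1.33 in PK7 and from -1.42 to 1.37 in PK19, so single members differed far more than the median. A change of at least 2-fold was seen in PK7 in 2 members (2.30% of all probe sets), MX2 and TRIM22, both higher. In PK19 it was seen in 5 (2.89%), TRIM22 and IFIT1 higher and GBP2, IFITM3 and IFI44L lower. In PK25 (0.193%), V8 (0.980%) and V17 (0%) no member reached it. Of the 48 members, 24 passed in at least 1 of the 5 clones, against 25.8% of all probe sets and 30.9% of all genes by brightest probe set. Of the 24, 14 passed only higher (13.7% of all genes), 8 only lower (15.6%), and OAS3 and IFI6 in both directions (1.49%). The heat map of differences by clone shows this pattern.

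**Figure D1:**
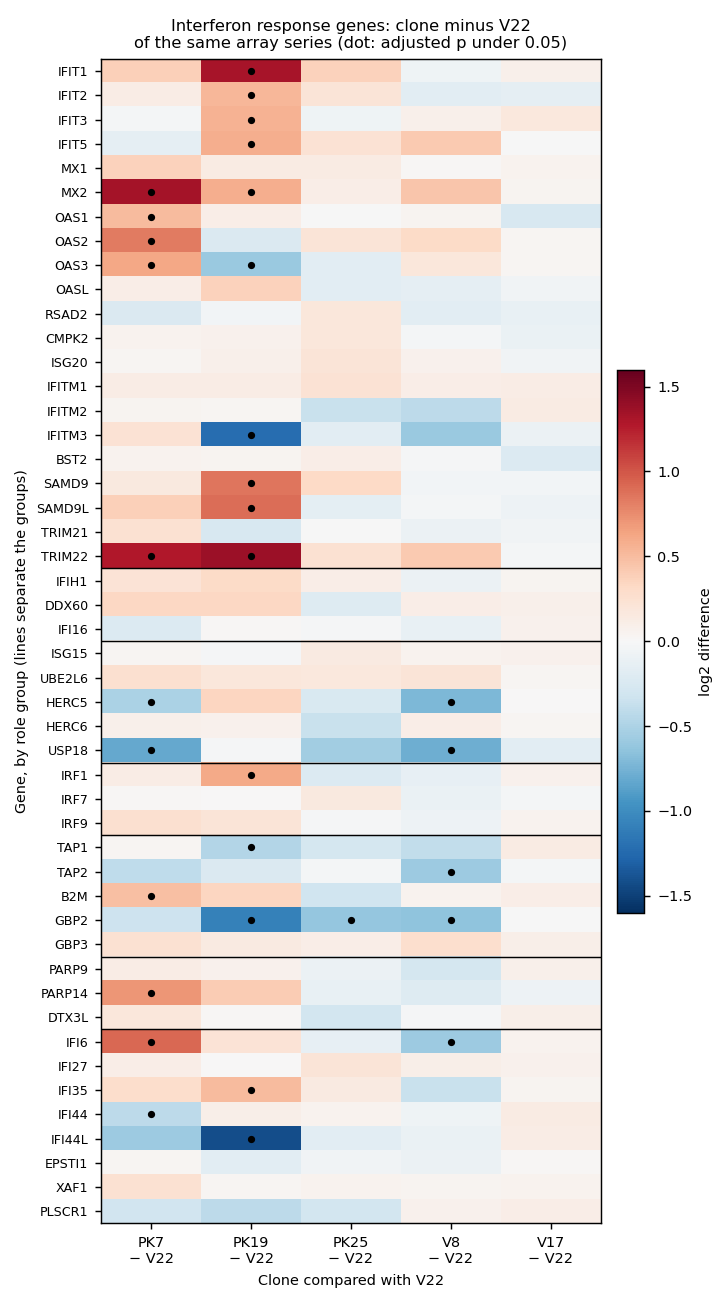
Log2 difference of each of 48 interferon response genes (rows, by role group) between a clone and V22 of the same array series (columns, means of 3 arrays each), with red higher and blue lower. Dots mark adjusted p under 0.05: 11 in PK7, 15 in PK19, 1 in PK25, 5 in V8 and 0 in V17.

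Among the 21 measured genes whose products block virus replication, 5 rose in PK7 and none fell, where 7.11% of all probe sets rose and 8.11% fell. In PK19 8 rose and 2 fell, where 6.65% and 7.40% of all probe sets did. TRIM22, an antiviral ubiquitin ligase, was at 9.17, 9.65 and 9.01 on the 3 PK7 arrays, 9.35, 9.39 and 9.35 on PK19 and 8.17, 8.47 and 8.07 on PK25. V22 had 8.06, 7.92 and 8.00 in the same series, so all PK7, PK19 and PK25 arrays lay above all V22 arrays. PK25 lay close to V22, with its lowest array at 8.07 against the highest V22 array at 8.06. The difference was 1.28 in PK7 (SE 0.16, adjusted p = 1.4e-05), 1.37 in PK19 (adjusted p = 4.2e-06) and 0.24 in PK25 (adjusted p = 0.62). V8 had 8.33, 8.96 and 8.27 and V22 of the first series 8.14, 8.01 and 8.14, a difference of 0.42 that did not pass. In bulk RNA, fewer cells with a transcript and less of it per cell cannot be told apart.

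MX2, a dynamin-like GTPase that hinders the nuclear entry of HIV, rose in the same clones, although its probe set was among the dimmest 30%. Its arrays read 5.85, 6.29 and 5.89 in PK7, 5.14, 5.57 and 5.11 in PK19 and 4.70, 4.65 and 4.70 in V22. The difference was 1.33 in PK7 (adjusted p = 4.5e-06) and 0.59 in PK19 (adjusted p = 0.012), and PK25 (0.11) and V8 (0.44) did not pass. The call in PK19 was lost without PK19 set 2 (0.088). Its neighbour MX1, a related GTPase that acts on influenza virus, had a dim probe set with arrays at 4.58 to 5.29 and differences of 0.37, 0.13 and 0.13 in PK7, PK19 and PK25, none of which passed.

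**Figure D2:**
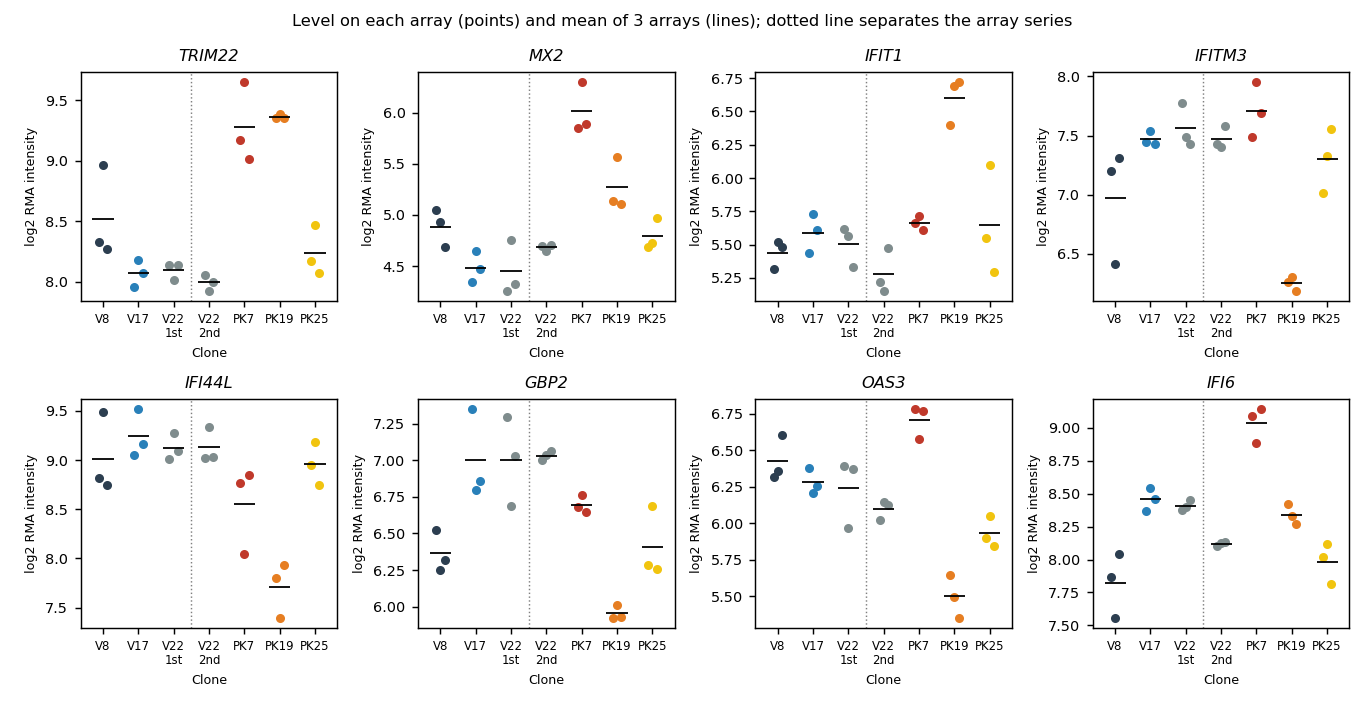
Log2 RMA intensity on each of 21 arrays (points) for 8 interferon response genes, with the mean of 3 arrays as a line and the array series separated by a dotted line. TRIM22 is high in PK7 and PK19, IFIT1 in PK19, IFI6 in PK7, and IFITM3, IFI44L, GBP2 and OAS3 have their lowest clone mean in PK19.

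The IFIT genes lie side by side and encode proteins that bind viral RNA with unusual ends. In PK19 all 4 rose. IFIT1 was at 6.40, 6.69 and 6.72 in PK19 and 5.22, 5.15 and 5.48 in V22, a difference of 1.32 (SE 0.16, adjusted p = 3.6e-06), and all PK19 arrays lay above every other array. PK7 had 5.66, 5.72 and 5.61 and PK25 had 5.55, 6.09 and 5.29, differences of 0.38 and 0.36 that did not pass. IFIT2, IFIT3 and IFIT5 rose in PK19 by smaller amounts, 0.54 (adjusted p = 0.0049), 0.55 (0.0044) and 0.58 (0.0092), the last lost without V22 set 5 (0.069). No IFIT gene passed in PK7, PK25, V8 or V17. The 50 nearest expressed genes around the IFIT cluster on chromosome 10 had a median difference of 0.35 in PK19, and their part in the result was not tested.

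The OAS genes encode enzymes that make the oligoadenylate messenger of RNase L, and OASL encodes a relative without that activity. In PK7, OAS1, OAS2 and OAS3 rose together. OAS2 was at 5.82, 5.99 and 6.10 in PK7 and 5.15, 5.33 and 4.93 in V22 (0.83, SE 0.11, adjusted p = 2.1e-05), with no overlap between the clones. OAS3 was at 6.78, 6.58 and 6.77 in PK7, 5.65, 5.50 and 5.35 in PK19 and 6.02, 6.14 and 6.12 in V22. It thus rose in PK7 (0.61, adjusted p = 9.8e-04) and fell in PK19 (-0.60, adjusted p = 0.0011). The rise of OAS1 in PK7 was 0.50 (adjusted p = 0.014), lost with only the compared arrays in the fit (0.098), without V22 set 5 (0.056) and without PK7 set 1 (0.099). OAS2 stood at -0.24 in PK19 without passing, and OASL, at 0.10 in PK7 and 0.37 in PK19, passed in no clone. The 50 nearest expressed genes around the OAS cluster on chromosome 12 had medians of 0.022 in PK7 and -0.044 in PK19.

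**Figure D3:**
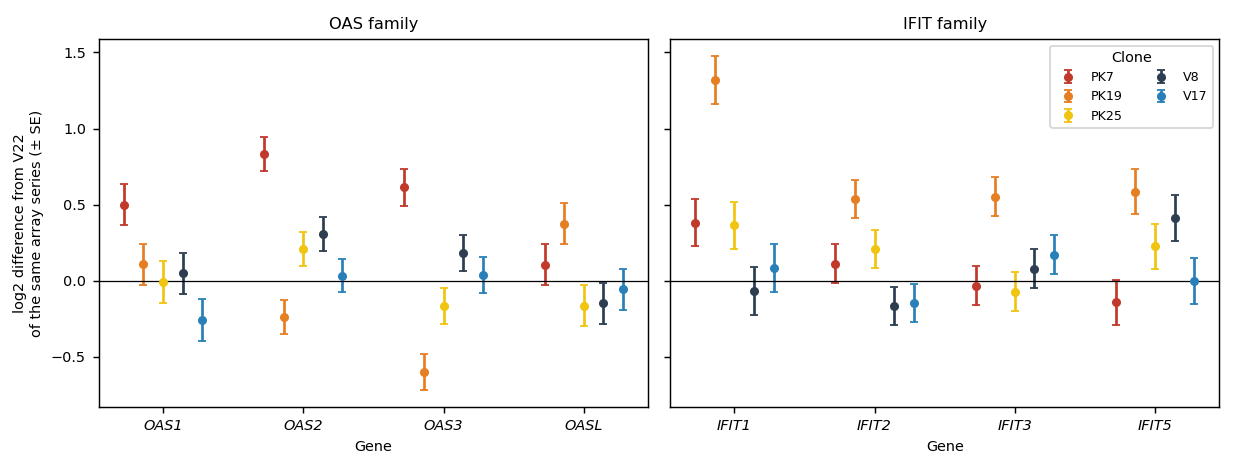
Log2 difference from V22 of the same array series for the OAS genes (left) and the IFIT genes (right) in 5 clones, with limma standard errors as bars (3 arrays per clone). OAS1, OAS2 and OAS3 are highest in PK7, where OAS2 differs by 0.83, and all 4 IFIT genes are highest in PK19, where IFIT1 differs by 1.32.

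SAMD9 and SAMD9L, neighbouring genes for growth-restraining antiviral proteins, rose in PK19. SAMD9L was at 7.63, 7.61 and 7.73 in PK19 and 6.67, 6.79 and 6.81 in V22 (0.90, adjusted p = 9.7e-04). SAMD9 differed by 0.86 (adjusted p = 0.0086), a call lost without V22 set 5 (0.061) and without PK19 set 2 (0.052). Their neighbours on chromosome 7 had a median of 0.012 in PK19.

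IFITM3, a membrane protein that stops viruses from fusing with the cell, fell in PK19. Its arrays read 6.26, 6.31 and 6.19 in PK19, 7.49, 7.95 and 7.69 in PK7, 7.02, 7.33 and 7.56 in PK25 and 7.43, 7.41 and 7.58 in V22. All PK19 arrays lay below every array of V22 and of the other parkin clones, at a difference of -1.22 (SE 0.18, adjusted p = 6.2e-05). V8 was at 7.20, 6.42 and 7.31, of which the lowest array came near PK19, and its difference of -0.59 did not pass (adjusted p = 0.052). IFITM2 and IFITM1, its close relatives, differed by 0.027 and 0.12 in PK19 and passed in no clone. The IFITM genes are similar in sequence, and signal shared between their probes was not tested.

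The other antiviral effectors passed in no clone. RSAD2 (viperin) stayed at 3.47 to 4.21 over the 21 arrays, BST2 (tetherin) at 4.18 to 4.84, CMPK2, a mitochondrial nucleotide kinase, at 5.95 to 6.80 and the exonuclease ISG20 at 5.45 to 6.17. TRIM21, an intracellular antibody receptor, ranged over 6.96 to 7.65. RSAD2, BST2, MX1 and IFITM1 were among the dimmest 30% of probe sets, where a change could go unseen.

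Of the members grouped here as sensors of foreign nucleic acid, IFIH1, DDX60 and IFI16, none passed in any clone. The OAS and IFIT genes, whose products also meet viral RNA, were counted among the antiviral effectors. IFIH1, the gene for the double-stranded RNA sensor MDA5, ranged over 4.59 to 5.22 on the 21 arrays (median 5.06), with differences of 0.22, 0.30 and 0.10 in PK7, PK19 and PK25. DDX60, a helicase that assists RNA sensing, ranged over 4.68 to 5.70 and differed by 0.34, 0.34 and -0.20. The DNA sensor IFI16 was brighter, at 8.90 to 9.91, and differed by -0.22, 0.019 and -0.017.

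The ISG15 system attaches a ubiquitin-like protein to new proteins. ISG15 itself passed in no clone (0.035 in PK7, -0.013 in PK19, 0.14 in PK25), over arrays at 6.56 to 7.13. Its ligase HERC5 fell in PK7, with arrays at 7.74, 7.40 and 7.78 against 8.22, 8.10 and 8.11 in V22 (-0.50, adjusted p = 0.0067). It also fell in the vector clone V8, at 7.63, 7.52 and 7.48 against 8.33, 8.07 and 8.40 (-0.72, adjusted p = 6.1e-04), and stood at 0.34 in PK19. The call in PK7 was lost without PK7 set 2 (0.05).

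USP18, the protease that removes ISG15 and damps the interferon receptor, fell in PK7 and V8 too. It read 6.23, 6.17 and 6.58 in PK7 and 7.14, 7.23 and 7.08 in V22 (-0.82, adjusted p = 0.0011), and 6.79, 6.15 and 6.86 in V8 and 7.38, 7.34 and 7.41 in V22 of the first series (-0.78, adjusted p = 0.0037). PK25 had -0.56 (adjusted p = 0.11) and PK19 -0.025. USP18 has a near-identical pseudogene, so its signal is less certain. The 34 expressed neighbours of USP18 on chromosome 22 had a median of -0.55 in PK7 and -0.19 in V8, and the 50 neighbours of HERC5 on chromosome 4 had -0.36 and 0.093. Their part in these results was not tested. The conjugating enzyme UBE2L6 (0.25, 0.18 and 0.17 in PK7, PK19 and PK25) and HERC6, a relative of HERC5 (0.085, 0.07 and -0.36), passed in no clone.

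Of the transcription factors, only IRF1 passed, and only in PK19. IRF1, an early factor of the interferon gamma response, was at 6.88, 6.91 and 6.62 in PK19 and 6.04, 6.18 and 6.39 in V22 (0.60, adjusted p = 0.0097), and the call was lost without V22 set 4 (0.06). IRF9, the DNA-binding partner of the STAT complex, differed by 0.26, 0.20 and -0.023 in PK7, PK19 and PK25. Its 50 neighbours on chromosome 14 had a median of -0.73 in PK19, below IRF9 itself. IRF7, which drives interferon genes, differed by 0.025, 0.0073 and 0.16.

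Antigen presentation and guanylate-binding genes included GBP2, the member that fell in 3 of the 5 clones compared with V22. GBP2, a guanylate-binding GTPase, was at 5.92, 6.01 and 5.93 in PK19, 6.29, 6.69 and 6.26 in PK25 and 6.68, 6.76 and 6.65 in PK7, where V22 had 7.00, 7.03 and 7.06. All 9 parkin arrays lay below the 3 V22 arrays of their series. The fall passed in PK19 (-1.08, SE 0.15, adjusted p = 3.1e-05) and PK25 (-0.62, adjusted p = 0.048), and PK7 stood at -0.34 (adjusted p = 0.16). The vector clone V8 fell as well, at 6.53, 6.25 and 6.32 against 7.30, 6.69 and 7.03 (-0.64, adjusted p = 0.011). The call in V8 was lost with only the compared arrays in the fit (0.06), without V22 set 1 (0.084) and without V8 set 2 (0.055). That in PK25 was lost with only the compared arrays in the fit (0.16), with the mean of its probe sets (0.055), without V22 set 4 (0.14), without V22 set 5 (0.14), without V22 set 6 (0.16), without PK25 set 1 (0.17) and without PK25 set 3 (0.24). A second probe set of GBP2 stood at -1.03 in PK19 (adjusted p = 7.8e-04), -0.67 in PK25 (adjusted p = 0.12) and -0.53 in V8 (adjusted p = 0.12). GBP3, from a dim probe set, passed in no clone.

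B2M, the light chain of MHC class I, was bright and rose in PK7, from 11.52, 11.72 and 11.58 in V22 to 11.96, 12.40 and 11.89 (0.48, adjusted p = 0.016). It stood at 0.34 in PK19 and -0.32 in PK25. The call was lost with only the compared arrays in the fit (0.076), without V22 set 4 (0.073), without V22 set 6 (0.054) and without PK7 set 2 (0.12). The peptide transporter genes fell in other clones. TAP1 fell in PK19, at 8.02, 7.79 and 7.94 against 8.39, 8.39 and 8.36 (-0.46, adjusted p = 0.017), lost without V22 set 4 (0.054), without V22 set 5 (0.051) and without PK19 set 2 (0.084). TAP2 fell in V8, at 7.69, 7.17 and 7.35 against 8.08, 8.02 and 7.85 (-0.58, adjusted p = 0.048), a call that ended in 9 of 13 alternatives, with adjusted p up to 0.213. The 50 neighbours of TAP1 on chromosome 6 had medians of -0.53, -0.65 and -0.56 in PK7, PK19 and V8, where TAP1 itself differed by 0.025, -0.46 and -0.39. The part of the neighbours in these results was not tested.

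PARP9 and DTX3L share a promoter region and encode partners in a ubiquitin ligase complex, and PARP14, nearby, encodes an ADP-ribosyltransferase. PARP14 rose in PK7, at 8.13, 7.90 and 8.05 against 7.31, 7.34 and 7.31 (0.71, adjusted p = 0.0063), and stood at 0.41 in PK19 (adjusted p = 0.14). PARP9 ranged over 6.79 to 7.61 (median 7.36) and DTX3L over 7.78 to 8.54 (median 8.14) on the 21 arrays, and neither passed in any clone.

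Among the remaining induced genes IFI6 stood apart in PK7. IFI6, a mitochondrial and endoplasmic reticulum protein, was at 9.09, 8.88 and 9.14 in PK7 and 8.11, 8.12 and 8.13 in V22 (0.92, SE 0.11, adjusted p = 7.3e-06). In V8 it fell, at 7.86, 7.56 and 8.04 against 8.37, 8.40 and 8.45 (-0.59, adjusted p = 0.0018), without overlap in either case. IFI35 rose in PK19, at 8.52, 8.28 and 8.64 against 7.94, 7.97 and 8.01 (0.50, adjusted p = 0.0031).

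IFI44L and IFI44 are neighbours on chromosome 1. IFI44L fell in PK19, at 7.80, 7.40 and 7.93 against 9.03, 9.34 and 9.03 (-1.42, SE 0.22, adjusted p = 7.2e-05), the largest difference of any member in either direction in the 5 comparisons with V22. IFI44 did not follow it there (0.10) but fell in PK7, at 8.16, 7.99 and 8.33 against 8.50, 8.77 and 8.48 (-0.42, adjusted p = 0.034), lost with only the compared arrays in the fit (0.069), without V22 set 4 (0.053), without V22 set 5 (0.17), without PK7 set 1 (0.074) and without PK7 set 2 (0.16). PLSCR1, a phospholipid scramblase, was lower in each parkin clone (-0.30, -0.41 and -0.29) without passing. IFI27, XAF1 and EPSTI1 passed in no clone.

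The parkin clones also differed from one another. By an F test in limma over PK7, PK19 and PK25, 25 of 48 members passed (23.6% of all probe sets, 28.3% by gene), 14 of them among the 21 antiviral effectors. The smallest adjusted p were those of OAS3 (7.8e-07), OAS2 (1.7e-06) and IFI6 (2e-06). Pairwise, 19 members passed between PK7 and PK19 (15.8% of all probe sets, 19.4% by gene). Of these, 9 were higher (7.85% of all probe sets) and 10 lower (7.94%) in PK7. Between PK7 and PK25 12 passed (13.9%, 16.4% by gene), 11 of them higher in PK7 (7.53% of all probe sets). Between PK19 and PK25 19 passed (14.9%, 17.5% by gene), 14 of them higher in PK19 (8.12% of all probe sets).

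Parkin and vector clones as groups were compared on 6 clone means, 3 against 3, with the series linked through V22. Between V17 and V22 0% of all probe sets passed by limma, so the 3 vector clones may not be independent of each other. This was not tested. If so, the spread among vector clones would be too small and non-overlap of the groups easier to reach. No member passed by limma (0.00371% of all probe sets), and 8 of 48 had an unadjusted p under 0.05, where 14.1% of all probe sets had one. The smallest adjusted p of a member was 0.306. The median difference of the members was 0.097, with 34 of 48 above 0, where the median of all probe sets was 0.0036. TRIM22 had the highest difference, at 0.83 (SE 0.31), from clone means of 9.28, 9.36 and 8.24 in parkin and 8.42, 7.97 and 7.99 in vector clones, which overlapped. IFIT1 followed with 0.68 (SE 0.26) and MX2 with 0.52 (SE 0.30). The lowest were IFI44L (-0.73, SE 0.30), GBP2 (-0.46, SE 0.24) and PLSCR1 (-0.39, SE 0.073).

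The clone means of the groups did not overlap in 12 of 48 members, where 23.1% of all probe sets did not overlap, a share near that of the members. Of the 12, 10 were higher in parkin clones (12.3% of all probe sets) and 2, IFI44L and PLSCR1, lower (10.9%). Of the 10, IFIT1 differed most (0.68), while MX1 (0.19), IFITM1 (0.0875) and BST2 (0.15) differed little and came from dim probe sets. PLSCR1 had the tightest groups among those 2, at 7.92, 7.81 and 7.94 in parkin and 8.30, 8.33 and 8.23 in vector clones. For IFIT1 the means were 5.66, 6.60 and 5.65 in parkin and 5.22, 5.37 and 5.28 in vector clones.

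**Figure D4:**
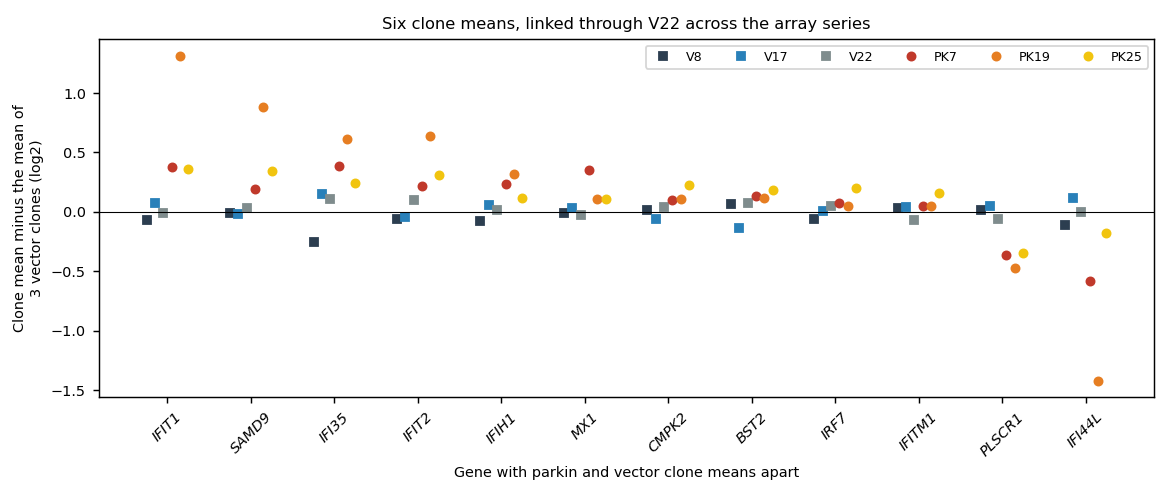
Means of 6 clones, relative to the mean of the 3 vector clones (squares vector, circles parkin, log2 scale), for the 12 members whose parkin and vector clone means did not overlap. PK19 lies highest in IFIT1, SAMD9 and IFIT2, while PLSCR1 lies low in all 3 parkin clones.

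V22 itself was measured in both series, and no member passed between them (0.0297% of all probe sets). The median difference of the members, first minus second series, was 0.064, with 4 members at an unadjusted p under 0.05. To ask whether a parkin clone departed from V22 by another amount than the vector clone V8 did, the difference of the 2 differences was tested. By limma it passed in 5 members for PK7 (5.21% of all probe sets), all more positive in PK7, in 10 for PK19 (6.22%), 7 of them more positive in PK19, and in none for PK25 (1.96%), where 4 members had an unadjusted p under 0.05.

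Chromosomal neighbourhood differed between members. The plot of members against their neighbours sets each difference beside the median of up to 50 expressed non-member genes around it in RefSeq order. TRIM22, MX2, IFI6, OAS2 and PARP14 in PK7 had neighbour medians of -0.059, -0.29, -0.015, 0.022 and 0.042, each below the member's own difference. For IFITM3, IFI44L and GBP2 in PK19 the medians were 0.062, -0.12 and -0.16. Among members that passed, the neighbour medians farthest from 0 with the sign of the member's own change were those of TAP1 in PK19, TAP2 in V8 (-0.56), USP18 and HERC5 in PK7, and the IFIT genes in PK19.

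**Figure D5:**
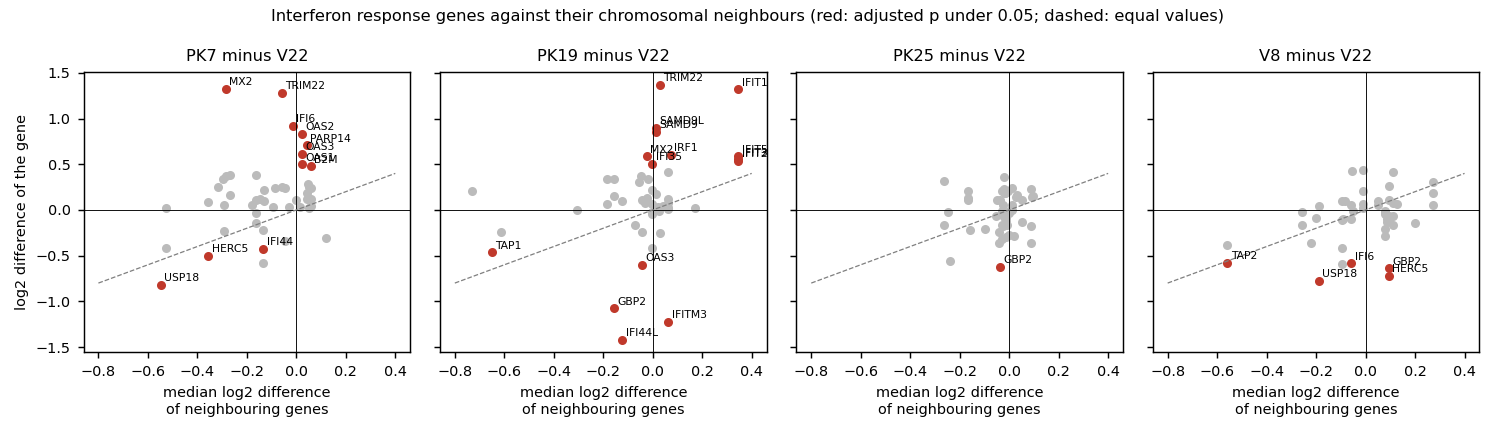
Log2 difference of each interferon response gene (vertical axis) against the median difference of its expressed neighbours (horizontal axis) for PK7, PK19, PK25 and V8, each minus V22 of its series, with red points at adjusted p under 0.05 and equal values on the dashed line. USP18 in PK7 has neighbours at -0.55 and IFIT1 in PK19 has neighbours at 0.35, while TRIM22 has neighbours near 0 in both.

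Upstream of the members, 16 of 21 interferon genes were measured and none passed in any clone. Of these 16, 13 were among the dimmest 30% of probe sets, IFNB1 at 3.07 in parkin and 2.98 in vector clones and IFNG at 3.17 and 3.13. Of 9 measured genes on the list of receptors, Janus kinases and a STAT protein, 4 passed in at least 1 clone, against 30.9% of all genes. IFNGR2, the signalling chain of the interferon gamma receptor, fell in PK19 (-1.11, adjusted p = 8.6e-08), PK7 (-0.55, adjusted p = 4.5e-04) and V8 (-0.63, adjusted p = 3.0e-04), and IFNGR1, its binding chain, rose in PK7 (0.34). JAK1 rose in PK19 (0.38) and IL10RB, a receptor chain shared with interferon lambda, in PK7 (0.32). The receptor chains of type I interferon, IFNAR1 and IFNAR2, passed in no clone against V22.

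Of 18 measured genes of nucleic acid sensing, 6 passed in at least 1 clone, a share near the 30.9% of all genes. TLR4, a receptor for bacterial lipopolysaccharide, was at 7.35, 6.72 and 7.40 in PK7 and 3.68, 3.73 and 3.75 in V22, a difference of 3.44 (SE 0.16, adjusted p = 1.6e-11), while PK19 and PK25 differed by 0.16 and 0.17. RIGI, the RNA sensor RIG-I and itself an interferon target, fell in PK19 (-1.36, adjusted p = 2.5e-06), PK7 (-0.66) and V8 (-0.51). AIM2, a cytosolic DNA sensor, rose in PK19 (1.18, adjusted p = 0.042), and SAMHD1, which depletes nucleotides, fell in PK7 (-0.55, adjusted p = 0.0088). Of 10 negative regulators, SOCS3 rose in PK19 (0.34) and PTPN11 in V8 (0.32), and no other passed.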

How the data were processed

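The data are RMA intensity values of 26947 probe sets on 21 arrays, deposited by the authors as linear intensity. The submitters' processing notes name RMA without a version. Which arrays were normalized together is not given in the sources used here. Values were turned into log2 here, with no filter. The members, gene lists and tests were chosen with earlier results of these data known.

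Differences came from limma 3.58.1 (lmFit, eBayes) in R 4.3.3, with 1 mean per clone and array series (7 means, 14 residual degrees of freedom), a threshold of 0.05 on Benjamini-Hochberg adjusted p over all probe sets, and 1 probe set per gene. Parkin and vector clones were compared on clone means after the V22 difference between series was subtracted from the first series. The fits were tested on simulated data with 100 log2 changes of each size among 26947 probe sets. In a simulation of PK7 against V22, 92% of log2 changes of 1 and 37% of those of 0.5 passed. Arrays have no counted depth, so their number limits the precision: standard errors of members were 0.10 to 0.22.

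Named genes were the members changed at least 2-fold in any clone, the 4 with the smallest p in each role group and the 3 highest and 3 lowest in parkin against vector clones, and in the other pathway lists up to 4 genes that passed. Other members and genes given with values were chosen after their values were seen. PECAM1, KRT8 and other marker genes were used only to check the cell line: astrocyte and neural stem markers gave array means of 5.71 to 6.28, endothelial markers 5.15 to 5.97 and epithelial markers 5.56 to 5.99. Neighbours are genes with a mean log2 value above 7, chosen after seeing the data. Alternatives covered normalization, dim probe sets, variance model, arrays in the fit, probe set choice, fold, set-number block and leaving out arrays or clones. In the first series, correlations of deviations were 0.059 to 0.22 between same-set arrays and lower, -0.14 to 0.053, between arrays of different sets. Among parkin clones they were -0.092 to 0.38 and -0.36 to 0.32, which overlapped. The main fit held no term for the set number.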

Additional observations from a re-analysis of the deposited data

Results flagged for a closer look

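Results are listed here because a test of the difference between clones passed by limma (adjusted p under 0.05). In the difference of PK7 from V22 minus that of V8 from V22, IFI6 had 1.50 (adjusted p = 8.2e-06), PARP14 0.91, MX2 0.89, TRIM22 0.86 and IFI35 0.64. For PK19 in the same test, IFIT1 had 1.39 (adjusted p = 0.00039), HERC5 1.07, TRIM22 0.95, SAMD9L 0.93, IFI35 0.87, IFI6 0.81, IFIT2 0.70, OAS2 -0.54, OAS3 -0.78 and IFI44L -1.31. Against V22 alone, HERC5, IFI6 and OAS2 did not pass in PK19, and IFI35 did not pass in PK7. HERC5 and IFI6 fell in V8 (-0.72 and -0.59), which enters this test. Between PK7 and PK19, differences of at least 2-fold were IFITM3 1.46, OAS3 1.21 and OAS2 1.07. Between PK7 and PK25 they were MX2 1.21, IFI6 1.06 and TRIM22 1.04. Between PK19 and PK25 they were TRIM22 1.13, SAMD9L 1.06, IFITM3 -1.05 and IFI44L -1.25. The cause of these differences was not tested, and each clone is a single clone.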

How the results depend on the processing

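Of the 32 member calls against V22, 20 passed in every alternative computed for them, 12 were lost in at least 1, and none changed direction. Counting members changed at least 2-fold gave PK7 a count of 2, PK19 of 5, PK25 and V8 of 0 each, and the F test among parkin clones of 8. With only the compared arrays in the fit the counts were 0 in PK25 and 3 in V8, and with the mean of all probe sets of a gene 0 in PK25. The replicate block on the set number gave 8 in V8, 0 in V17 and 27 among parkin clones. In the parkin against vector comparison it gave 7, with arrays as observations and no adjustment for the series, and arrays with clone as a random block gave 4. The 7 treats arrays of a clone as replicates of the condition, which they are not. Apart from the 2-fold counts against V22, shares of all probe sets under the alternatives were not computed. The counts under the alternatives therefore do not set members against other genes. Leaving out 1 array at a time, the counts ran from 9 to 12 in PK7, 12 to 15 in PK19, 0 to 1 in PK25, 3 to 7 in V8 and 21 to 27 among parkin clones, and stayed at 0 in V17 and between the V22 series. In V8 the count was 3 without V22 set 1 or V8 set 2. Leaving out 1 clone at a time left 0 members between parkin and vector clones. The cause of these changes was not tested. The parkin clones could not be paired with V22 of their series, because these arrays share no set number. In the simulation, with 100 changes of each size, differences of about 0.5 passed in 37% of cases. In the PK7 data 4101 of 26947 probe sets passed, so the adjusted threshold was less strict there. The 37% therefore does not measure how many changes of members were found, and smaller changes could be missed.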

Other observations

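Interferon-induced genes outside the 50 members were measured too. Of 36 genes on this list, 14 passed by limma in at least 1 of 5 clones against V22, where 30.9% of all genes did. PSME2, a subunit of the proteasome activator that serves antigen processing, fell in PK19 (-1.25, adjusted p = 4.7e-10), PK7 (-0.49), PK25 (-0.46) and V8 (-0.36). LGALS3BP, a secreted galectin-binding glycoprotein, rose in PK7 (1.10, adjusted p = 1.2e-04) and PK19 (0.88). CASP4, an inflammatory caspase gene, rose in PK19 (0.92), PK7 (0.79) and V8 (0.73). TRIM38, a ubiquitin ligase gene, fell in PK19 (-0.90) and V8 (-0.53). CXCL10, a chemokine gene strongly induced by interferon, was at 2.81 in parkin and 2.91 in vector clones and passed in no clone. Chromosomal neighbours were examined only for the members. Their part in the changes of PSME2 and the other genes outside the members was not tested.

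Of 5 measured genes that load peptides onto MHC class I, 4 passed in PK19, where 16.9% of all genes did. TAPBPL, a relative of tapasin, rose in PK7 (0.84) and PK19 (0.79), and TAPBP, tapasin, fell in PK19 (-0.60) and V8 (-0.50). The peptide-trimming enzymes ERAP1 and ERAP2 rose in PK19 (0.54 and 0.62), ERAP2 also in V8 (0.57). CALR, the chaperone calreticulin, passed in no clone. For these genes too, the part of chromosomal neighbours was not tested.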
